A study of Homo sapiens with 2 samples.

Results

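Nuclear hormone receptors are transcription factors that read lipid-soluble signals such as steroids, thyroid hormone, retinoids, vitamin D, fatty acids and oxysterols. A typical member binds DNA through a zinc finger domain and its ligand through a pocket at the other end of the protein. The members described here were 44 receptor genes listed by symbol, PGR among them, and chosen with earlier results of these data known. Of these, 38 were read by 125 probe sets that the platform annotation assigned to 1 gene only, out of 19775 genes measured in all. NR1D1, NR1H2, NR1H4, NR1I2, NR2F2 and NR0B1 had no such probe set and were not analysed here.

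The cells were AsPC-1, an established human pancreatic ductal adenocarcinoma (PDAC) cell line, transfected with PGR siRNA or with control siRNA. Each condition was measured on 1 array, a 3' expression array hybridised with biotin-labelled cRNA, so no test between conditions was possible and each difference compares 2 arrays. The cells of both arrays shared line and serum, and the labels name DMEM for the si-PGR cells whereas the methods give another medium for AsPC-1. A difference in medium between the arrays, if there was one, cannot be told apart from the siRNA. In a bulk RNA sample, fewer cells that carry a transcript and less of it per cell cannot be told apart. The methods name 2 siRNA duplexes against PGR and do not say which was used for the array. Their antisense strands, the strands that pair with the PGR transcript, are shown because they define the perturbation, with the seed (bases 2 to 8 from the 5′ end) in capitals.
si-PGR-1 antisense: uUGCCUCAaaccaauugcctt
si-PGR-2 antisense: uCUUGGGUaauugugcagctt
Each strand has 21 bases, of which 19 are complementary to the sense strand, and the seeds of the duplexes differ.

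PGR, the progesterone receptor and the siRNA target, read 73.3 on the array labelled si-PGR and 16.1 on the array labelled control with its brighter probe set, and 4.80 on the array labelled si-PGR and 1.53 on the array labelled control with the other. These values all lie below a signal floor of 97.9, the median of all values of single-gene probe sets on both arrays. The array therefore gave no usable level of PGR mRNA on either side, and the order of the values ran against the labels. Every direction below rests on the array labels, which PGR did not check.

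By the same floor, 23 of 38 receptors (60.5%) were above background on at least 1 array, beside 58.7% of all genes, and 22 of them on both arrays. Counted by probe set, 55 of 125 receptor probe sets passed on at least 1 array (44.0%), beside 52.4% of all single-gene probe sets. The receptors above background came from most branches of the family. All 3 PPARs and all 3 NR4A receptors passed, as did RXRA and RXRB of the retinoid X receptors, THRA, RARA and RARG of the thyroid hormone and retinoic acid receptors, VDR, NR1H3, RORA, NR1D2, ESRRA, NR3C2, NR5A2, NR6A1 and 4 orphan receptors of subfamily NR2. The classical sex steroid receptors PGR, ESR1 and ESR2 and the glucocorticoid receptor NR3C1 did not. With the floor at the 75th percentile of all values, 623, 11 receptors remained (ESRRA, RXRB, PPARA, PPARD, PPARG, VDR, RORA, NR1D2, NR2C1, NR2C2 and NR2F6). Of these, PPARD passed that floor on the array labelled control alone, at 666, and read 447 on the array labelled si-PGR.

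**Figure D1:**
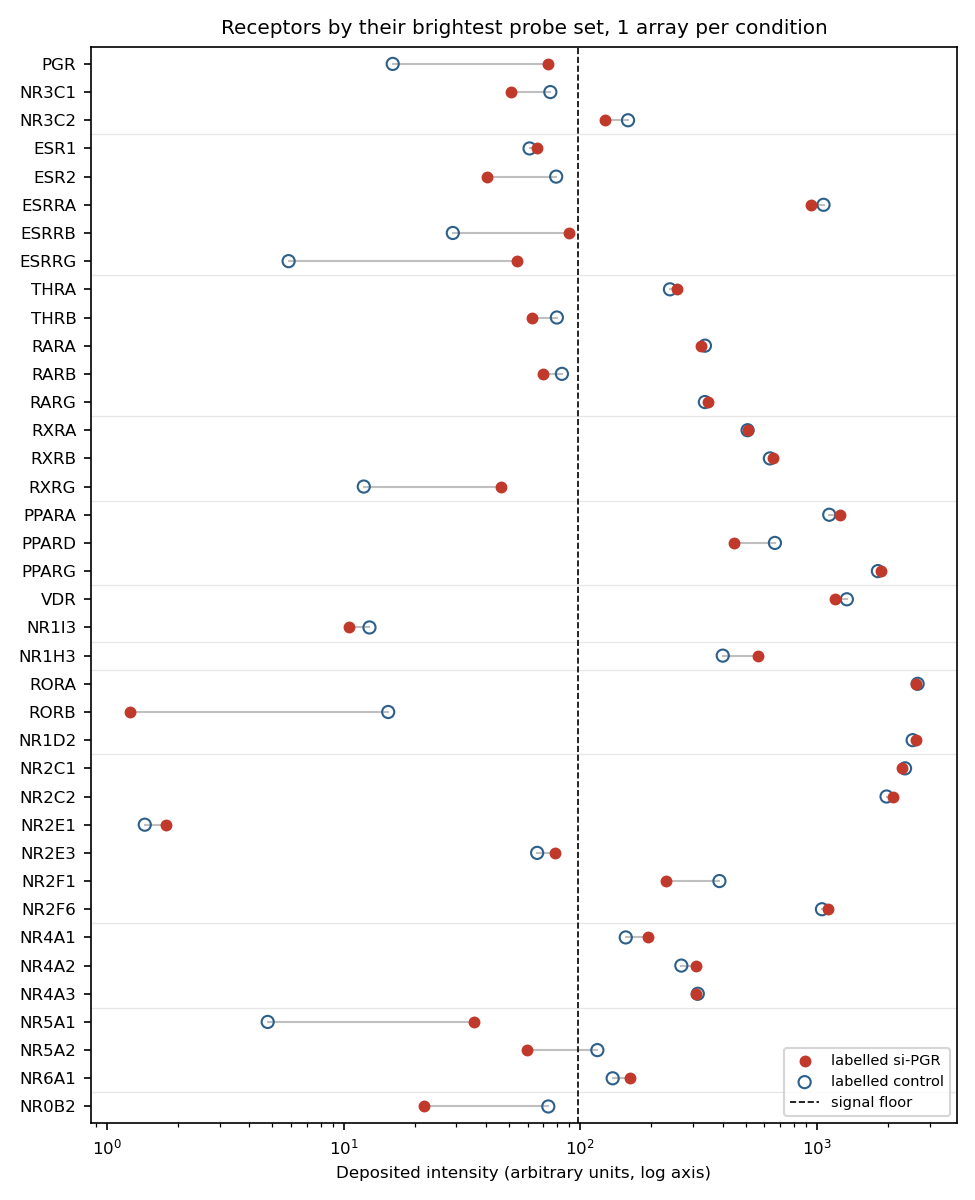
Deposited intensity (log axis, arbitrary units) of each receptor by its brightest probe set on the array labelled si-PGR (filled) and on the array labelled control (open), grouped by class, with the signal floor as a dashed line. The 23 receptors with a point right of the floor are those above background, NR5A2 crosses it, and the 15 others, PGR included, lie left of it on both arrays; levels of different probe sets are not comparable with each other.

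The differences between the arrays were small. On the array labelled si-PGR, 0 of the 23 receptors past the floor read past 1.5-fold higher, where 3.65% of all genes past the floor were, and 2 read past 1.5-fold lower, NR2F1 and NR5A2, where 4.72% of all genes did (8.37% in either direction). These counts take the values as deposited. NR5A2 entered through the control array alone, and with the floor in place of its si-PGR value it was within 1.5-fold, so that NR2F1 is the only one of them measured on both arrays. At 2-fold, 0 receptors were called higher (1.11% of all genes), lower (1.58%) or in either direction (2.7%). The median difference was 0.04 on the log2 scale, beside 0.02 over all genes past the floor, with 13 receptors higher and 10 lower by sign, and 15 of the 23 lay within 0.20 of zero. Over the 22 receptors past the floor on both arrays, differences by brightest probe set ran from -0.75 to 0.49 with an SD of 0.27. The SD was also 0.27 over all genes past the floor on both arrays, and 2.31% of those genes were at least 1.5-fold lower. Without a replicate array the error of a single difference is unknown. As a measure within the arrays only, the differences given by several probe sets for 1 gene, each past the floor on both arrays, scattered with an SD of 0.26.

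**Figure D2:**
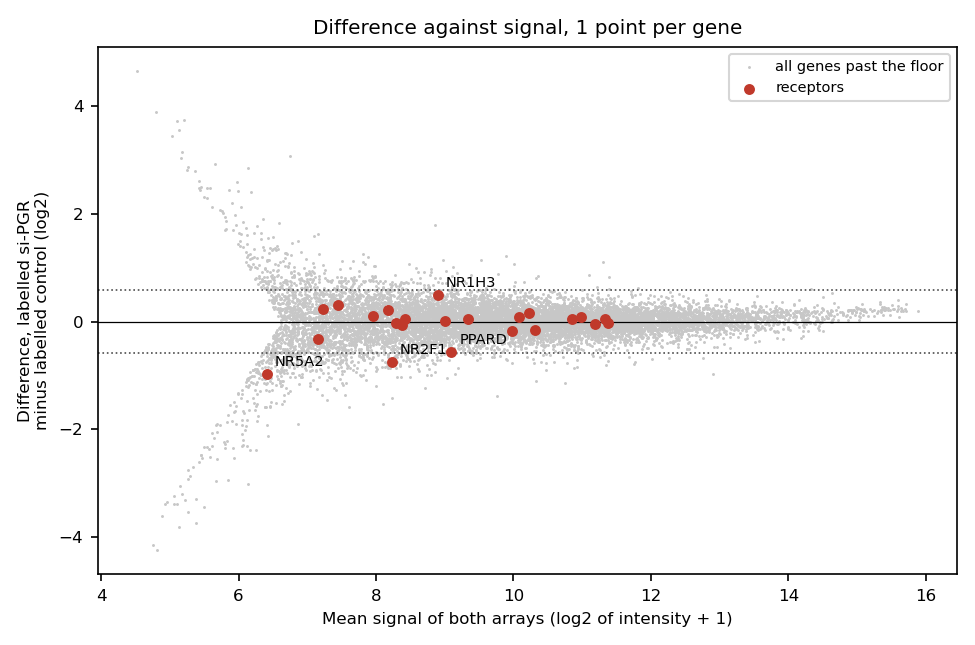
Log2 ratio of si-PGR to control intensity (vertical axis) against mean log2 intensity (horizontal axis) for all genes past the floor (grey) and for the 23 receptors (red), with 1.5-fold differences as dotted lines. NR2F1 lies below the lower dotted line at -0.75, as does the deposited value of NR5A2, whose si-PGR intensity was below the floor. PPARD at -0.57 and NR1H3 at 0.49 lie inside the dotted lines. The other receptors lie from -0.33 (NR3C2) to 0.30 (NR4A1).

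Among the steroid receptors, the mineralocorticoid receptor NR3C2, which binds aldosterone and cortisol, was the only member above background. It read 127 on the array labelled si-PGR and 159 on the array labelled control, a difference of -0.33. The glucocorticoid receptor NR3C1 was represented by 5 probe sets, none of which reached the floor. Its brightest read 51.0 on the array labelled si-PGR and 74.8 on the array labelled control. ESR1, the estrogen receptor alpha, had 9 probe sets and ESR2, the estrogen receptor beta, had 6, and all of them were below the floor on both arrays. The brightest probe set of ESR1 read 65.6 on the array labelled si-PGR and 61.1 on the array labelled control.

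ESRRA, an orphan receptor that regulates mitochondrial genes, was above background with both of its probe sets, which gave different sizes. The brighter read 949 on the array labelled si-PGR and 1068 on the array labelled control, a difference of -0.17. The dimmer read 157 on the array labelled si-PGR and 295 on the array labelled control, a difference of -0.91 and past 1.5-fold. Its paralogs ESRRB and ESRRG stayed below the floor, ESRRB at 89.6 on the array labelled si-PGR and 29.0 on the array labelled control. ESRRB and RARB, at 83.7 on the array labelled control, were the receptors nearest below the floor by their brightest probe sets.

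The retinoid X receptors form heterodimers with many other members, among them the retinoic acid, thyroid hormone, vitamin D, PPAR and LXR receptors. RXRA read 511.8 on the array labelled si-PGR and 510.2 on the array labelled control, a difference of 0.0045, and RXRB read 654 on the array labelled si-PGR and 634 on the array labelled control, a difference of 0.05. A dimmer RXRA probe set read 173 on the array labelled si-PGR and 107 on the array labelled control, 0.69 higher and past 1.5-fold. Averaged over all 3 RXRB probe sets, of which 1 stayed below the floor, the difference of RXRB was -0.68. RXRG was below the floor on both arrays.

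Of the receptors that pair with RXR, RARA and RARG, which bind retinoic acid, differed by less than 0.10 with their brightest probe sets. RARA read 324 on the array labelled si-PGR and 337 on the array labelled control, and RARG read 347 on the array labelled si-PGR and 337 on the array labelled control. Other probe sets of these receptors past the floor gave 0.33 for RARA and -0.24 for RARG, so the sign depended on the probe set. RARB, the third retinoic acid receptor, was below the floor with all 5 of its probe sets.

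THRA, the thyroid hormone receptor alpha, read 257 on the array labelled si-PGR and 239.6 on the array labelled control, a difference of 0.10. A dimmer probe set past the floor on both arrays gave -0.13, so the sign depended on the probe set. Another THRA probe set passed the floor on the array labelled control alone, at 111, and read 49.9 on the array labelled si-PGR, at least 1.13-fold lower when the floor stands in for the si-PGR value. Averaged over all 4 THRA probe sets, of which 1 stayed below the floor, the difference was -1.14. THRB was below the floor with 3 probe sets.

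All PPARs, sensors of fatty acids and their derivatives, were above background. PPARA, which promotes fatty acid oxidation, had 9 probe sets, 6 of them past the floor on both arrays. The brightest read 1257 on the array labelled si-PGR and 1129.6 on the array labelled control, a difference of 0.15, and the 6 ran from -0.30 to 0.37. PPARD, a PPAR found in most tissues, read 447 on the array labelled si-PGR and 666 on the array labelled control, a difference of -0.57, just inside 1.5-fold. Its second probe set past the floor ran the same way at -0.30, but the mean of all 4, with 2 below the floor, was 0.82. PPARG, the adipogenic PPAR, read 1874 on the array labelled si-PGR and 1813 on the array labelled control, a difference of 0.05 from 1 probe set.

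VDR, the vitamin D receptor, was above background with 3 of 4 probe sets, and all of them read lower on the array labelled si-PGR. The brightest read 1195 on the array labelled si-PGR and 1341 on the array labelled control, a difference of -0.17, and the others were at -0.29 and -0.15. NR1H3, the oxysterol receptor LXR alpha, was read by 1 probe set at 564 on the array labelled si-PGR and 401 on the array labelled control. Its difference of 0.49 was under 1.5-fold and the highest among receptors past the floor on both arrays by brightest probe sets, with dimmer ones of RXRA and NR2C1 above it. NR1I3, the constitutive androstane receptor of drug metabolism, was below the floor.

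Clock receptors set circadian transcription through competition at shared sites, RORA as an activator and NR1D2 (REV-ERB beta) as a repressor. RORA read 2633 on the array labelled si-PGR and 2669.7 on the array labelled control with its brightest probe set, a difference of -0.02. All 6 of its probe sets past the floor had a negative sign, down to -0.50, the value of a probe set that read 1209 on the array labelled si-PGR and 1713 on the array labelled control. NR1D2 read 2636 on the array labelled si-PGR and 2543 on the array labelled control, and its probe sets gave 0.05 and 0.07. RORB was below the floor on both arrays.

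Among the orphan receptors of subfamily NR2, NR2F1 (COUP-TFI, a repressor and developmental regulator) had the lowest difference by brightest probe set among receptors past the floor on both arrays. Only the dimmer probe set of ESRRA, among those past it on both, was lower. It read 229.5 on the array labelled si-PGR and 388 on the array labelled control with its only probe set, 1.69-fold lower, and it stayed past 1.5-fold in each alternative scaling run. The testicular receptors NR2C1 and NR2C2 stood close to zero. NR2C1 read 2289 on the array labelled si-PGR and 2362 on the array labelled control, a difference of -0.04, and NR2C2 read 2093 on the array labelled si-PGR and 1973 on the array labelled control, a difference of 0.09. A dimmer NR2C1 probe set gave 0.54. NR2F6, a relative of NR2F1, read 1116 on the array labelled si-PGR and 1052 on the array labelled control, a difference of 0.09, with its dimmer probe set past the floor at -0.50. NR2E1 and NR2E3, receptors of neural stem cells and of the retina, were below the floor.

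The NR4A receptors are immediate-early genes that act without a known classical ligand, and all 3 were above background. NR4A1 read 193 on the array labelled si-PGR and 156 on the array labelled control (0.30). NR4A2 read 309 on the array labelled si-PGR and 268 on the array labelled control (0.21). NR4A3 read 309.7 on the array labelled si-PGR and 314 on the array labelled control (-0.02). In each of these receptors the probe sets past the floor had both signs. Both NR4A1 probe sets past the floor carry the mark that the array maker gives to probes that may bind other sequences, and a dimmer one, past the floor on the array labelled control alone, was at least 1.35-fold lower.

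NR5A2 (LRH-1), a regulator of acinar and bile acid genes, passed the floor on 1 array only, at 59.4 on the array labelled si-PGR and 118 on the array labelled control. Taking the floor in place of its si-PGR value, NR5A2 was at least 1.21-fold lower, and it did not pass a floor of 123, set from probe sets of olfactory receptors (their 95th percentile). The other 3 of its probe sets were below the floor. NR6A1, the germ cell nuclear factor, read 162 on the array labelled si-PGR and 137 on the array labelled control, a difference of 0.24, and another probe set past the floor on both arrays gave -0.31. The brighter one carries the same mark as those of NR4A1, so that without marked probe sets NR6A1 is read at -0.31 and NR4A1 is not above background. NR5A1 (SF-1) and NR0B2 (SHP), regulators of steroid and bile acid synthesis, were below the floor.

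**Figure D3:**
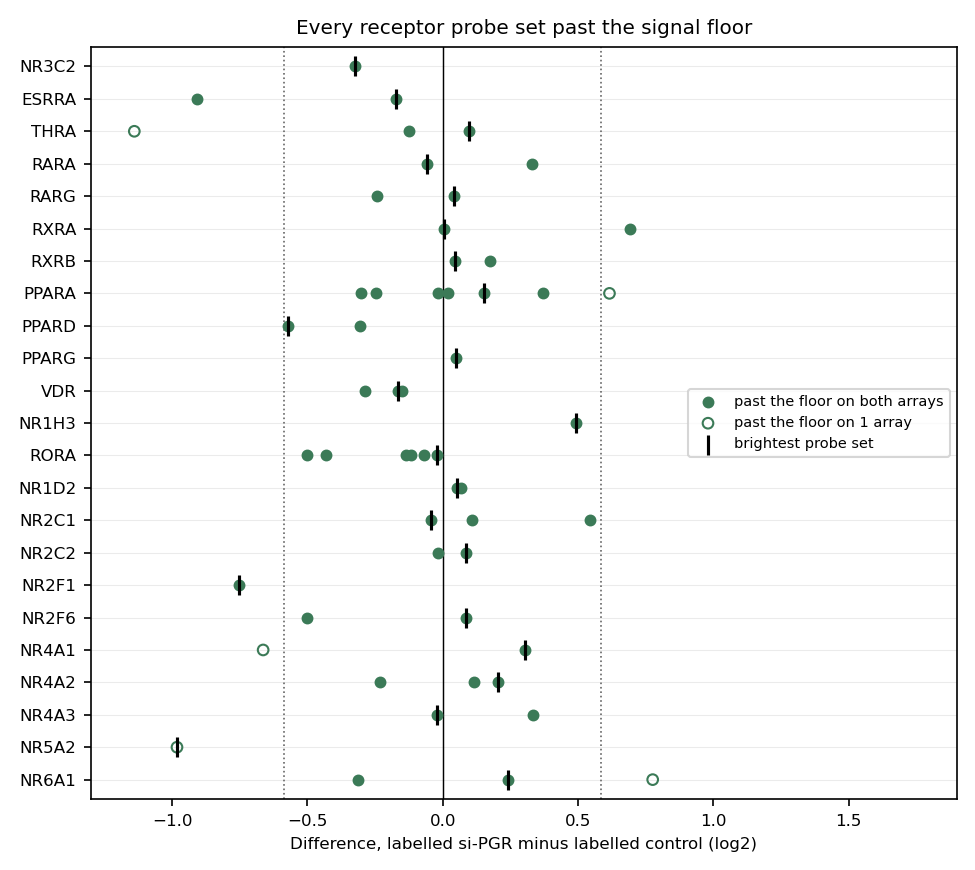
Log2 ratio of si-PGR to control intensity (horizontal axis) of every probe set past the signal floor for the 23 receptors above background, with filled points past the floor on both arrays, open points past it on 1 array, a black bar on the brightest probe set and 1.5-fold as dotted lines. Filled points past a dotted line occur in ESRRA, RXRA and NR2F1 only, and RORA and VDR lie on 1 side of zero with all their points.

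Agreement between probe sets limits what these arrays say of a single receptor. Of 18 receptors with several probe sets past the floor on at least 1 array, 7 had a single sign in all of them (ESRRA, RXRA, RXRB, PPARD, VDR, RORA and NR1D2) and 11 had both signs. Of the 50 receptor probe sets past the floor on both arrays, 3 (6%) were past 1.5-fold in either direction, where 5.44% of all such probe sets were. The 15 receptors below background held 46 probe sets, with values from 1.17 to 89.6 and differences from -4.42 to 3.91 on the log2 scale, and these sizes have no meaning as fold changes.

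The promoter sequences of the receptors, from the RefSeq tables of GRCh38.p14, cover 250 bases before to 50 bases after each start, and 34 of the 38 receptors had an entry. Many receptor genes have several starts, so each was read at the start with the most CpG dinucleotides, the sites of DNA methylation. The 20 receptors above background with an entry had a median of 26 CpG, and 15 of them (75%) had at least 20, beside 79.3% of all genes above background. The 14 receptors below background had a median of 20.5, and 7 of them (50%) had at least 20, beside 35.0% of all genes below background. Over all genes with an entry the median was 29 above and 10 below background. Only 71.7% of the genes below background had an entry, too few for a fair comparison, so their values are printed and nothing is concluded from them. Receptors had a median of 2 starts above and 2.5 below background, and all genes had 1 in both groups. The start with the most CpG was thus picked from more starts in receptors. At the start listed first in the table, the medians were 19.5 for receptors above and 16 for receptors below background, beside 26 and 9 over all genes. The promoters of PGR, NR2F1, PPARA and NR3C1 are printed with each CpG in capitals, because of the place of these receptors in the results. PGR is the siRNA target and NR2F1 is the receptor past 1.5-fold on both arrays. PPARA, above background, and NR3C1, below it, have nearly equal CpG counts at the starts printed. The other starts of NR3C1 had 39 CpG or fewer, and the other start of PPARA had 52.
PGR promoter (chr11:101129014-101129313, minus strand, 17 CpG): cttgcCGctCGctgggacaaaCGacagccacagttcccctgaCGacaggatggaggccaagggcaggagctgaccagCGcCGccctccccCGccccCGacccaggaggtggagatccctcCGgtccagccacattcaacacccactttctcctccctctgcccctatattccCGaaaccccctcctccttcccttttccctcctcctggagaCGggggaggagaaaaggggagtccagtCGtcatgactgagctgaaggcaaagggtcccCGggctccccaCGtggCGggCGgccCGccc
NR2F1 promoter (chr5:93582972-93583271, plus strand, 12 CpG): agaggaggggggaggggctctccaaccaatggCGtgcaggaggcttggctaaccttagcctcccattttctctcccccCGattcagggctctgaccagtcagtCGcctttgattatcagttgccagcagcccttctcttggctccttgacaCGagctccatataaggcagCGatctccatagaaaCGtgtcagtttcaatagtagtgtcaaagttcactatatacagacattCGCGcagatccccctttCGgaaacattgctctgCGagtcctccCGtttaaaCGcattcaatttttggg
PPARA promoter (chr22:46150276-46150575, plus strand, 52 CpG): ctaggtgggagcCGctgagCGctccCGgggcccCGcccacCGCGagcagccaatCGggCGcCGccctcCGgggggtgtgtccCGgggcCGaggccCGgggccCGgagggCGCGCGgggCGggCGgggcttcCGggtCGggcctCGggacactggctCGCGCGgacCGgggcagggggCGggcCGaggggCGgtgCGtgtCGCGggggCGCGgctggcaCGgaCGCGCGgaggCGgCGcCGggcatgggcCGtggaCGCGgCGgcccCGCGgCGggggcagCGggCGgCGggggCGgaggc
NR3C1 promoter (chr5:143403637-143403936, minus strand, 51 CpG): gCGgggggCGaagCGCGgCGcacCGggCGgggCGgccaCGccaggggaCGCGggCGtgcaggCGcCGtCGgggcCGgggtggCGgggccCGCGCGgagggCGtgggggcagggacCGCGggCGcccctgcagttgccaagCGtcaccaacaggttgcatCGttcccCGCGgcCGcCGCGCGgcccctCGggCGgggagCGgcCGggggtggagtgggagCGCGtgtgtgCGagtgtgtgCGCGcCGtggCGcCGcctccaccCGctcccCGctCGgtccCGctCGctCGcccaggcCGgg
The core motif AGGTCA, to which many of these receptors bind, was searched on both strands and was found in 14 of 86 promoters of the measured receptors (16.3%) and in 13.8% of all 35116 promoters. AGAACA, the core of the element shared by progesterone, glucocorticoid and mineralocorticoid receptors, was found in 12 promoters of the measured receptors (13.95%) and in 14.8% of all. A match is a description of these letters and not a binding site.

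Genes that the receptors are known to control, and enzymes that make or clear their ligands, were followed in 11 lists with 112 measured genes, of which 68 (60.7%) passed the floor. On the array labelled si-PGR, 1 of these 68 read past 1.5-fold higher (3.65% of all genes) and 5 read past 1.5-fold lower (4.72% of all genes) by the deposited values. A gene that passed through 1 array alone had to differ between the arrays, and 5 of these 6 were of that kind. With the floor in place of the dimmer value, CRY2, CAMP, CYP3A4 and CYP27A1 were within 1.5-fold and PDZK1 was at it. Among the 62 past the floor on both arrays, 0 were 1.5-fold higher and 1 was 1.5-fold lower, where 1.86% and 2.31% of all such genes were. That gene was EHHADH, a peroxisomal enzyme of fatty acid oxidation and a PPAR target, at 148 on the array labelled si-PGR and 277.5 on the array labelled control, a difference of -0.90 from 1 probe set.

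Genes induced through the glucocorticoid and progesterone receptors had a median of -0.03 over 9 genes and a range from -0.18 to 0.18 by their brightest probe sets. Other probe sets past the floor on at least 1 array lay farther out, at -1.56 for the phosphatase DUSP1 and at 0.36 for the immunophilin FKBP5, both named after their values were seen. In all lists, differences of such other probe sets are deposited values without a bound, also where only 1 array passed. ERRFI1, a feedback inhibitor of EGFR, was lowest at -0.18, followed by the transcription factor KLF9 at -0.17, with other probe sets at -0.21 and 1.69. The metallothionein genes MT2A and MT1X were highest at 0.18 and 0.09, with another MT1X probe set at -0.07. Of 11 measured progesterone targets known from breast and uterus, only FOXO1, STAT5A and CCND1 passed the floor, and each read lower on the array labelled si-PGR. STAT5A lay near the floor, at 99.3 on the array labelled si-PGR and 116 on the array labelled control, a difference of -0.22. It did not pass the olfactory receptor floor of 123. This difference and the -0.23 of CCND1 were smaller than the SD of 0.26 between probe sets of 1 gene. FOXO1, a transcription factor of insulin signalling, was at -0.54, with another probe set at -0.03, and CCND1, cyclin D1, was at -0.23, with another probe set at -0.60.

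Estrogen targets had a median of -0.21 over 8 genes, with TFF1, a secreted trefoil peptide, highest at 0.49 and MYB, a transcription factor, at 0.24. PDZK1, a scaffold protein, was lowest and read 95.6 on the array labelled si-PGR and 147 on the array labelled control, at least 1.5-fold lower with the floor as bound. CA12, a carbonic anhydrase, was next at -0.27, with other probe sets from -0.42 to 0.15. Retinoic acid targets had a median of -0.19 over 4 genes, with the binding protein CRABP2 at -0.28, the catabolic enzyme CYP26B1 at -0.26, the reductase DHRS3 at -0.12 and RARRES1 at -0.0026, with another RARRES1 probe set at -0.89. Vitamin D targets were mostly below the floor. Of 8 measured, CAMP, an antimicrobial peptide, passed on the array labelled control alone and was at least 1.40-fold lower, CD14 was at least 1.17-fold lower, and IGFBP3, which binds insulin-like growth factors, was at -0.27. CYP24A1, the vitamin D 24-hydroxylase, did not reach the floor.

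PPAR targets had a median of -0.09 over 10 genes, with EHHADH lowest, the very long chain dehydrogenase ACADVL next at -0.21, and the kinase PDK4 highest at 0.12, followed by HADHA of the mitochondrial trifunctional protein at 0.06, with other probe sets at -0.44 and -0.08. LXR targets had a median of 0.09 over 8 genes. By brightest probe sets the fatty acid synthase FASN was highest at 0.40, with another probe set at 0.71, and the acyltransferase LPCAT3 was at 0.20. The sterol transporter ABCG1 was at -0.18, with other probe sets from -0.07 to 0.04. The lipogenic factor SREBF1 was at -0.17, with another probe set at 0.25. MYLIP, named after its values were seen, was at 0.15, with 5 other probe sets from -0.0077 to 4.51. FXR targets passed the floor in 2 of 6 cases, SLC27A5, a bile acid CoA ligase, at 0.21 and FGF19, an intestinal hormone, at 0.18. Of the PXR and CAR targets, ABCB1, the drug efflux pump, was at -0.04, with another probe set at -0.91. CYP3A4, a drug-metabolising enzyme, passed on the array labelled control alone and was at least 1.41-fold lower. Another CYP3A4 probe set was at -0.90, and these other probe sets carry no bound.

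Partners of RORA and NR1D2 in the circadian clock had a median of 0.02 over 12 genes. BMAL1, which both receptors regulate and which was picked out after its values were seen, read 633 on the array labelled si-PGR and 690.0 on the array labelled control, a difference of -0.12. CRY2, a repressor of the clock, passed through the si-PGR value alone, with 126 on the array labelled si-PGR and 34.3 on the array labelled control, and was at least 1.29-fold higher. The repressor BHLHE40 followed at 0.34, with another probe set at 0.10, and TEF, an output factor of the clock, and CRY1 were lowest at -0.25 and -0.18. Among enzymes of ligand supply and clearance, with a median of -0.02 over 8 genes, CYP27B1, which makes active vitamin D, was highest at 0.44 and CYP2R1, which acts before it, was at 0.12, with another probe set at -0.47. CYP27A1, which makes an oxysterol, passed on the array labelled control alone and was at least 1.27-fold lower, and CYP26B1 was next.

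**Figure D4:**
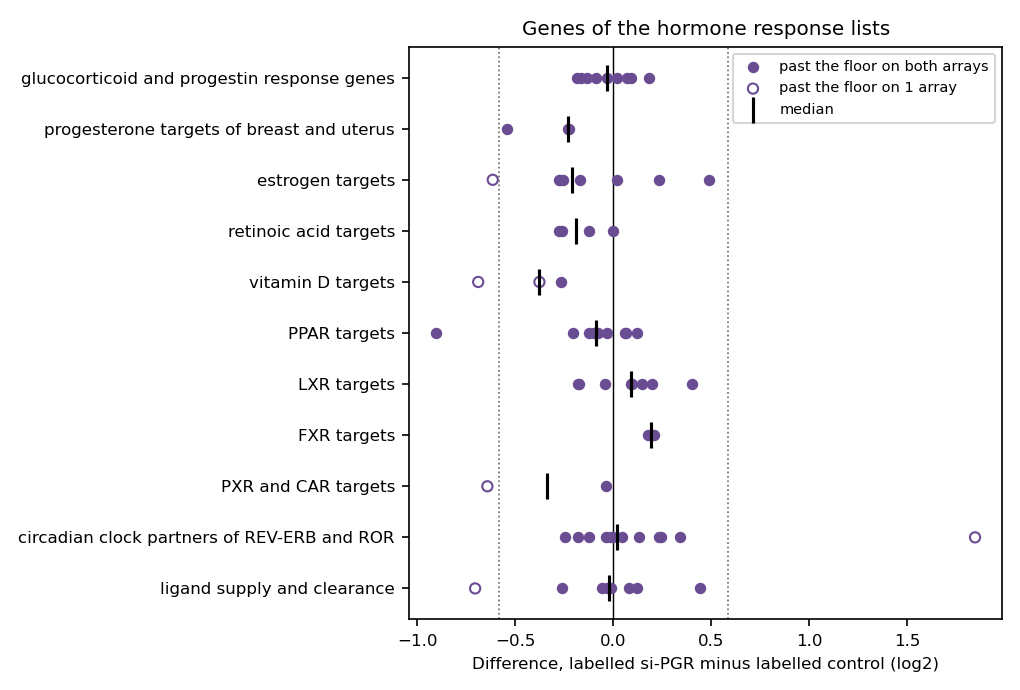
Log2 ratio of si-PGR to control intensity (horizontal axis) of each gene past the signal floor in 11 lists of receptor targets and ligand enzymes, with filled points past the floor on both arrays, open points past it on 1 array, black bars at list medians and 1.5-fold as dotted lines. EHHADH is the single filled point past a dotted line, and the open point on the far right is CRY2.

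The cells were set against markers of cell types, which do not identify the line. Of 8 epithelial and pancreatic tumour markers, 7 passed the floor, among them the keratins KRT8, KRT18 and KRT19, EPCAM and CDH1. The keratin KRT7 also passed, at only 182 on the array labelled si-PGR and 189 on the array labelled control. MSLN did not pass, at 7.1 on the array labelled si-PGR and 9.1 on the array labelled control. Markers of other cells passed in 2 of 6 for fibroblasts, 1 of 4 for leukocytes, 1 of 4 for endothelial cells, 0 of 3 for acinar cells and 0 of 4 for islet cells. COL1A1, DCN, CD79A and PECAM1 were the 4 that passed. Of these, DCN read 60.3 on the array labelled si-PGR and 114.5 on the array labelled control, and PECAM1 read 93.2 on the array labelled si-PGR and 163 on the array labelled control, so both passed on the control array alone. The same held for CEACAM6 among the epithelial markers, at 79.3 on the array labelled si-PGR and 119.7 on the array labelled control. COL1A1 passed on both arrays, at 298.5 on the array labelled si-PGR and 299.3 on the array labelled control. CD79A did too, at 229 on the array labelled si-PGR and 248 on the array labelled control. Both lie above the brightest probe sets of KRT7, NR3C2, NR4A1 and NR6A1. Signals of that size thus occurred for markers of other cells, and their source was not tested. The part of the markers that passed in the differences was not tested either. Both arrays had a mean of 500.1 after removal of 2% of the values at each end, and their medians were 65.3 for the array labelled si-PGR and 68.4 for the array labelled control.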

How the data were processed

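Total RNA of AsPC-1 cells was measured on 2 arrays, 1 per condition. The authors deposited a linear intensity for each of 54675 probe sets. The algorithm, background correction and scaling are not given in the sources used here, and the equal trimmed means show a scaling to a common level. Detection calls were not used here. Probe sets were named from the platform annotation, and the 41097 with 1 gene symbol were kept. Differences are log2(intensity + 1) on the array labelled si-PGR less that on the control. Of several probe sets, the one brightest on average stood for the gene, which was called above background when the higher value reached 97.9. Differences past 1.5-fold were counted, with no test. A dimmer value below the floor was raised to it for a bound, except in the other probe sets of list genes. The named genes are PGR, every receptor past the floor, the 2 nearest below it, and of each list the 2 genes at either end and any past 1.5-fold. The members and lists were chosen with earlier results of these data known. The calculation was run on simulated arrays with less scatter than these, with changes of 2-fold or more in genes past the floor on both arrays. That run does not bear on differences near 1.5-fold or on genes near the floor. Python 3.11.15, numpy 2.4.6, pandas 2.3.3, matplotlib 3.10.9 and statsmodels 0.14.6 served for this. The number of arrays limits the precision.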

Additional observations from a re-analysis of the deposited data

Results flagged for a closer look

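Probe sets shared by NR1D1 and THRA belong to no receptor count above, because the annotation assigns them to both genes, which overlap on opposite strands. A shared probe set read 202 on the array labelled si-PGR and 122 on the array labelled control, a difference of 0.72 on the log2 scale. Another read 1178 on the array labelled si-PGR and 1163 on the array labelled control, a difference of 0.02. Both were set apart for a closer look because data outside the main measurement carried a signal above the floor and above the control array. Which of the genes the signal comes from cannot be told apart here.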

How the results depend on the processing

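No paired analysis was possible because each condition has 1 array, and none could be left out. The count of receptors above background was 22 with a floor from 135 olfactory receptor probe sets (their 95th percentile), 22 with both arrays past the floor, 18 with probe sets averaged and 11 with the floor at the 75th percentile. Counted as probe sets in place of receptors, 55 of 125 passed. The number of receptors past 1.5-fold was 1 with the olfactory floor and with both arrays past the floor (NR2F1), 0 with the floor at the 75th percentile and with 2-fold, 10 with no floor and 4 with probe sets averaged (PPARD higher, NR2F1, RXRB and THRA lower). Among genes of the response lists the number past 1.5-fold was 6 in the main setting, 0 with the floor at the 75th percentile, 1 with both arrays past the floor, 32 with no floor, 13 with probe sets averaged and 1 with 2-fold. The median difference of the receptors ran from 0.02 to 0.09 over the alternatives set at the start and was -0.0076 without probe sets whose name ends in _x_at, an alternative chosen after seeing the data. Each of quantile normalization, median centring, loess (span 0.7) and an offset of 16 left NR2F1 and NR5A2 as the receptors past 1.5-fold. Median centring put the median of all genes past the floor at 0.07. The cause of these changes was not tested, other than the number of genes that each floor leaves. Over all genes, 424 were higher and 548 lower past 1.5-fold, against 2770 and 3277 with no floor, 202 and 250 with both arrays past the floor, 44 and 55 with the floor at the 75th percentile, and 129 and 184 at 2-fold.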
